A study of Arabidopsis thaliana with 6 samples.

Results

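The genes carried by the mitochondria and the plastids of the *Arabidopsis* root tip were examined in the wild type and in *bron-2*, a mutant of the transcription factor gene *BRON*. They are the rows of the expression table whose identifier starts with ATMG for the mitochondrial genome (146 genes) or ATCG for the plastid genome (133 genes), together 279 of the 33560 genes in the table. The control was Columbia-0 and the mutant was *bron-2* (the T-DNA line SALK_046220C). Root tips of about 2 mm were cut from 5-day-old seedlings that had grown on plates with sucrose under long days, and 3 biological replicates were sequenced per genotype, each pooled from 10 plates. No other agent was applied in this experiment.

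Mitochondria and plastids keep small genomes of bacterial origin. The plant mitochondrial genome codes for part of the respiratory chain and the ATP synthase, some ribosomal proteins, and ribosomal and transfer RNAs, and the plastid genome adds subunits of the photosystems and of a bacterial-type RNA polymerase. All other proteins of these organelles, including the phage-type RNA polymerases, the sigma factors and the enzymes of RNA decay, are coded in the nucleus and imported. In root tips the plastids are colourless and do not photosynthesize.

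Levels are given in FPKM, the fragments of a gene divided by its transcript length and by the mapped fragments of its library. The genotypes were compared with limma on log2(FPKM + 1), a scale that understates the change of low genes, over the 17107 genes that averaged 1 FPKM or more in the 6 libraries, and every log2 fold change is *bron-2* over wild type. A gene is said to be called where its unadjusted limma p was under 0.05, and each adjusted p is limma's over all tested genes. *BRON* (AT1G75710) itself was at 17.1 ± 0.940 FPKM in wild type and 1.09 ± 0.163 FPKM in *bron-2* (SD, n = 3), so the libraries carried the labelled genotypes. Of the 5 root tip markers, the tissue patterning genes SCR and SHR were at 25.0 ± 2.53 and 7.95 ± 0.752 FPKM in wild type and 26.1 ± 1.58 and 8.58 ± 1.21 FPKM in *bron-2* (SD, n = 3), with overlapping groups. The stem cell niche genes were lower in the mutant on average. PLT2 averaged 1.29 ± 0.304 FPKM in the wild type and 0.728 ± 0.0701 FPKM in *bron-2* (SD, n = 3, log2 fold change -0.40, adjusted p = 0.465), was called and did not overlap. PLT1 (0.780 to 0.930 against 0.506 to 0.766 FPKM) did not overlap either, and WOX5 (0.427 ± 0.115 against 0.160 ± 0.188 FPKM, SD, n = 3) did. Both averaged under 1 FPKM and were not tested, and the part of these markers in the organelle values was not tested. The summed level of 11 marker genes of green shoot tissue was 79.6 to 111 FPKM in wild type and 77.8 to 96.9 FPKM in *bron-2*. Most of that sum came from PSAD-1, CAB1 and PSBO1, with means of 34.7, 24.5 and 23.4 FPKM over the 6 libraries. Of the 11 markers 8 were above 0 in all libraries, and the Rubisco small subunit genes RBCS1B and RBCS2B were listed at 0 throughout. The number of reads is not given by FPKM, but the steps between low values put the depth at 0.976 to 1.11 in the wild type and 1.19 to 1.25 in *bron-2*, relative to wild type replicate 1.

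Many of these genes have near-identical copies elsewhere in the reference. In the TAIR10.1 assembly, bases 3239038 to 3509765 of chromosome 2 hold copies of 72.2% of the 367808 bases of the mitochondrial genome, in 17 blocks with an identity between 99.56% and 99.97%. The plastid genome has a copy of only 0.659% of its bases in the nucleus, but it carries an inverted repeat, a stretch of 26264 bases present at 84171 to 110434 and again at 128215 to 154478 with an identity of 100%. When each gene was read in windows of 100 bases, the length of the sequenced reads, 25 of 33 mitochondrial protein genes had 50% or more of their windows at a second place in the reference. For plastid protein genes this was so for 13 of 83, where a gene of the inverted repeat is counted once for each annotated copy. The 3 mitochondrial ribosomal RNA genes had all their windows at a single place, whereas the 3 plastid ribosomal RNA genes read in this way had 100% of theirs repeated. The mitochondrial sequence of TAIR10.1 may differ from that in the build the authors used.

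The gene of subunit 9 of the ATP synthase, *atp9* (ATMG01080), shows the extent of the repetition. It lies on the minus strand of the mitochondrial genome from base 270961 to 271185, and its 225 bases occur with 0 differences on the minus strand of chromosome 2 from base 3251856 to 3252080, inside the nuclear gene AT2G07671. Both are printed so that they can be compared, with the start codon in capitals.
atp9: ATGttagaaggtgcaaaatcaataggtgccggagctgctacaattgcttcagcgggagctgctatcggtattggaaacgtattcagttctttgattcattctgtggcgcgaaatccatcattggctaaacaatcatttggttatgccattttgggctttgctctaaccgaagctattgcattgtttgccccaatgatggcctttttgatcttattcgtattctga
atp9 copy: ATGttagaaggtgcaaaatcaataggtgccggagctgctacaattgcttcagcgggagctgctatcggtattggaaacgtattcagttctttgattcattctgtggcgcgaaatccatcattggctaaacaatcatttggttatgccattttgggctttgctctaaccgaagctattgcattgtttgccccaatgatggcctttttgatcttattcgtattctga

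In the plastid genome, 2 ribosomal protein genes give the contrast between a sequence that is found once and a repeated sequence. The start of *rpl20* (ATCG00660), at bases 68766 to 68865 on the minus strand, has 1 occurrence in the whole reference. The start of *rpl2* (ATCG01310) has 2 occurrences, at bases 85744 to 85843 on the minus strand and at 152806 to 152905 on the plus strand, in the copies of the inverted repeat.
rpl20: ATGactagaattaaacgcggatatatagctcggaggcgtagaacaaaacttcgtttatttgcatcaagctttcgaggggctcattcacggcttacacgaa
rpl2: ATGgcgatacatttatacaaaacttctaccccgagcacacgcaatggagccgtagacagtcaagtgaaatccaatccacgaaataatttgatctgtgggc

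The levels of the genes that the annotation names were then set beside the repetition of their sequence. The reference pairs few ATMG and ATCG identifiers with a gene name, and 17 linked genes are described here, 13 mitochondrial and 4 plastid. All 13 mitochondrial genes were named through nuclear genes inside the chromosome 2 insertion, so repeated windows followed from how they were chosen. The 5 mitochondrial protein genes without a repeated window are not among them. Of the 13 mitochondrial genes, 12 had at least 1 copy in the organelle genome with 100% of its windows repeated, and 8 of the 13 were listed at 0 in all 6 libraries. These 8 were the ribosomal protein genes *rpl5*, *rps4*, *rps7* and *rps12*, the cytochrome b gene *cob*, *atp8* of the ATP synthase, and *nad1* and *nad3* of complex I (the row of *nad1* is one part of that gene, and 75.5% of its windows were repeated). The genes *atp1*, *atp6*, *cox3* of cytochrome c oxidase and *nad2* did not exceed 0.668 FPKM in any library.

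The highest of these mitochondrial genes was *atp9* (ATMG01080), at 2.64, 3.53 and 2.56 FPKM in wild type and 3.96, 1.96 and 2.29 FPKM in *bron-2*. The nuclear gene with the same 225 bases, AT2G07671, was at 8.31, 15.5 and 20.9 FPKM in wild type and 26.2, 15.9 and 12.7 FPKM in *bron-2*, above *atp9* in every library. Neither row separated the genotypes (*atp9* log2 fold change -0.09, adjusted p = 0.920, AT2G07671 log2 fold change 0.31, adjusted p = 0.816). How reads with several equal matches were assigned is not given in the sources used here, so the levels of these rows cannot be told apart from those of their copies.

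Of these 4 plastid genes, the 3 with no repeated window were all above 0 in at least 1 library. The highest was *clpP* (ATCG00670), the plastid subunit of the Clp protease, at 1.47, 5.85 and 3.58 FPKM in wild type and 2.51, 2.12 and 2.11 FPKM in *bron-2*. The *bron-2* libraries lay within the range of the wild type. *rpl20* (ATCG00660) and *cemA* (ATCG00530), an envelope membrane protein gene, had means of 0.948 and 0.498 FPKM. *rpl2*, the gene in the inverted repeat, was listed at 0 in all 6 libraries. The plot of repeated windows against level shows these 17 genes together, which were named through notes on related nuclear genes and are no random sample of either genome.

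**Figure D1:**
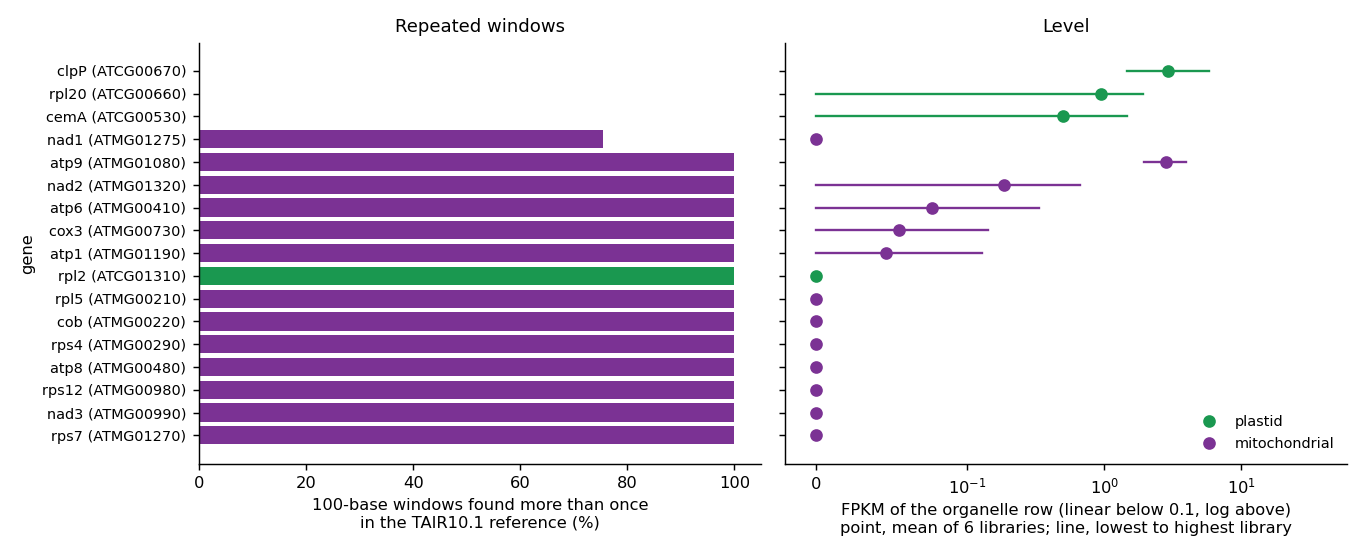
Left, the percentage of 100-base windows of each named organelle gene that occur more than once in the TAIR10.1 reference (for a gene with several copies, the highest of them). Right, the level of its row in FPKM, with the mean of 6 libraries as a point and the range as a line, for plastid (green) and mitochondrial (purple) genes. The 3 plastid genes without repeated windows had means of 0.498 to 2.94 FPKM. Of the 14 others, which are the mitochondrial genes and plastid *rpl2*, 9 were listed at 0.

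Most rows of both genomes held no signal. Of the 146 mitochondrial rows, 96 (65.8%) were listed at 0 in all 6 libraries, 35 were above 0 in some libraries and 15 in all. Of the 133 plastid rows, 74 (55.6%) were at 0 in all libraries, 21 were above 0 in some and 38 in all. Among the nuclear rows 31.9% were at 0 in all libraries. Genes of the respiratory chain such as *cob* and *nad3* were among the zeros. Whether a gene listed at 0 was silent was not tested.

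The zeros stood in long runs of neighbouring identifiers. The longest runs were ATCG01140 to ATCG01310 with 18 rows and ATCG00830 to ATCG00940 with 13 rows in the plastid list, and ATMG00840 to ATMG00950 with 12 rows in the mitochondrial list. The runs were not placed on the genomes, because the annotation used here gives no coordinates for most identifiers. Among the linked plastid genes, *cemA*, *rpl20* and *clpP* start at bases 60741, 68512 and 69910, in the order of their identifiers. The longest run ends at ATCG01310, which is *rpl2* of the inverted repeat. The linked mitochondrial genes did not all follow that order, with *atp9* (ATMG01080) starting at base 270961 and *atp1* (ATMG01190) at base 67098. A total of 52 mitochondrial rows are cited in the notes on nuclear genes inside the chromosome 2 insertion. Of these, 38 were at 0 in all libraries, and together they held 1.05% of the mitochondrial signal. The other 94 rows held 99.0%, with 58 at 0. This split follows the notes and not the sequence, so the other rows may also include genes with a nuclear copy. The 129 nuclear rows inside the insertion summed to 57.3 to 98.8 FPKM in wild type and 64.1 to 81.6 FPKM in *bron-2*, and 76 of them were at 0 throughout. Their sum was 0.137 to 0.156 times the mitochondrial sum in the wild type and 0.156 to 0.183 times in *bron-2* (p = 0.1 in a two-sided exact permutation test, as small as it can be here).

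**Figure D2:**
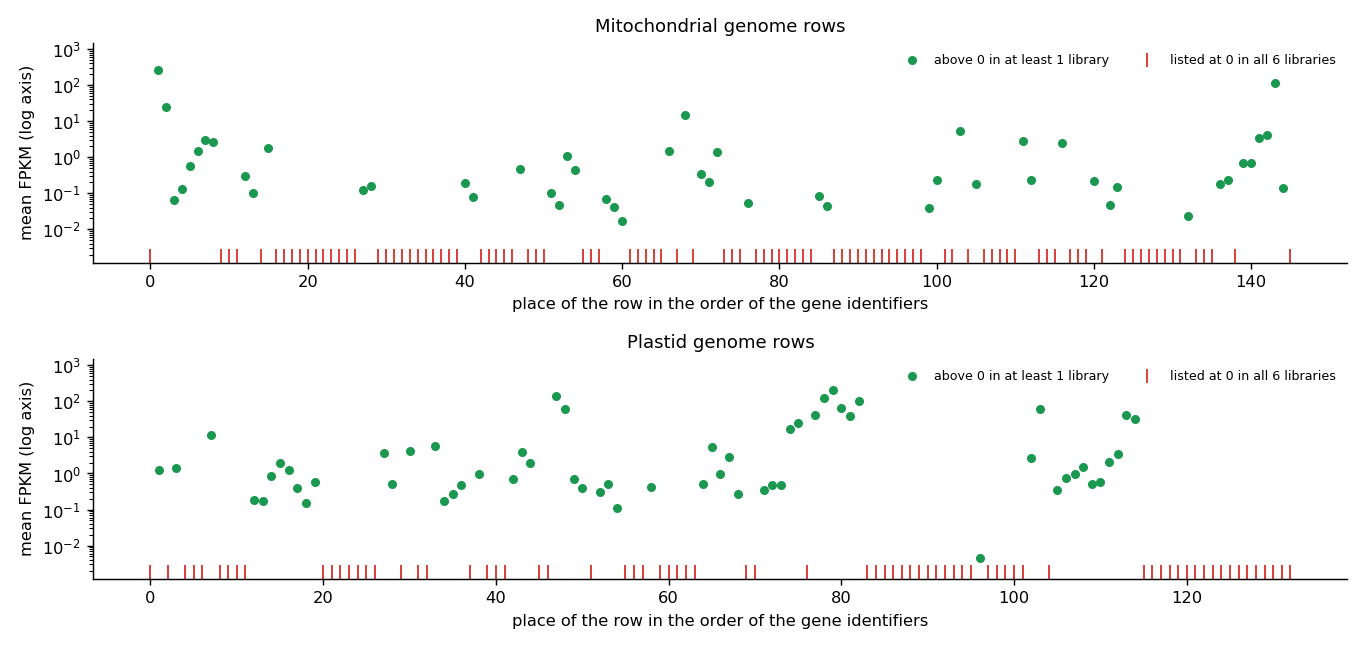
Mean FPKM over the 6 libraries (log axis) for every mitochondrial (top) and plastid (bottom) row, in the order of the gene identifiers, with red ticks for rows listed at 0 in all libraries. The ticks, 96 mitochondrial and 74 plastid, form runs of up to 12 and 18 rows, and 2 mitochondrial and 4 plastid rows exceed 100 FPKM.

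The share of summed FPKM that each genome took was small. Summed over its rows, the mitochondrial genome held 368, 490 and 668 FPKM in the 3 wild type libraries, against 446, 376 and 415 FPKM in *bron-2*. These are 0.0463%, 0.0615% and 0.0825% of summed FPKM in the wild type and 0.0563%, 0.0467% and 0.0511% in *bron-2*. The *bron-2* libraries lay within the wider range of the wild type. The mean shares were 0.0634% ± 0.0182 and 0.0514% ± 0.00480 (SD, n = 3), a difference of -0.0121 percentage points that was smaller than the wild type SD (exact permutation test, two-sided, p = 0.4, where the smallest possible p is 0.1).

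The plastid genome held 1028, 1009 and 1150 FPKM in wild type and 1007, 1016 and 942 FPKM in *bron-2*. Its share was 0.130%, 0.127% and 0.142% in the wild type and 0.127%, 0.126% and 0.116% in *bron-2*, so that the groups met at 0.127%. The mean shares were 0.133% ± 0.00812 and 0.123% ± 0.00622 (SD, n = 3). They differed by -0.00963 percentage points (exact permutation test, two-sided, p = 0.2, where the smallest possible p is 0.1). With 3 libraries per genotype no share difference could reach the level used for calls, so this p does not decide whether the shares differ. In bulk samples fewer organelles or cells and less RNA per organelle cannot be told apart. Leaving out wild type replicate 3, the library with the highest share of both genomes, brought the mitochondrial difference to -0.00255 and the plastid difference to -0.00500 percentage points.

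Summed plastid FPKM exceeded summed mitochondrial FPKM in every library. The ratio of the sums was 2.80, 2.06 and 1.72 in the wild type and 2.26, 2.70 and 2.27 in *bron-2*, with means of 2.19 ± 0.549 and 2.41 ± 0.254 (SD, n = 3). The wild type spanned the *bron-2* libraries (exact permutation test, two-sided, p = 0.5). The ratio is of summed FPKM over the rows that had signal. The genomes differ in which genes are repeated, so it is not a ratio of RNA amounts. The difference changed from 0.218 to -0.0177 without wild type replicate 3. The number of rows above 0 was 25 to 37 mitochondrial and 46 to 50 plastid in wild type libraries, and 26 to 34 and 49 to 53 in *bron-2*.

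**Figure D3:**
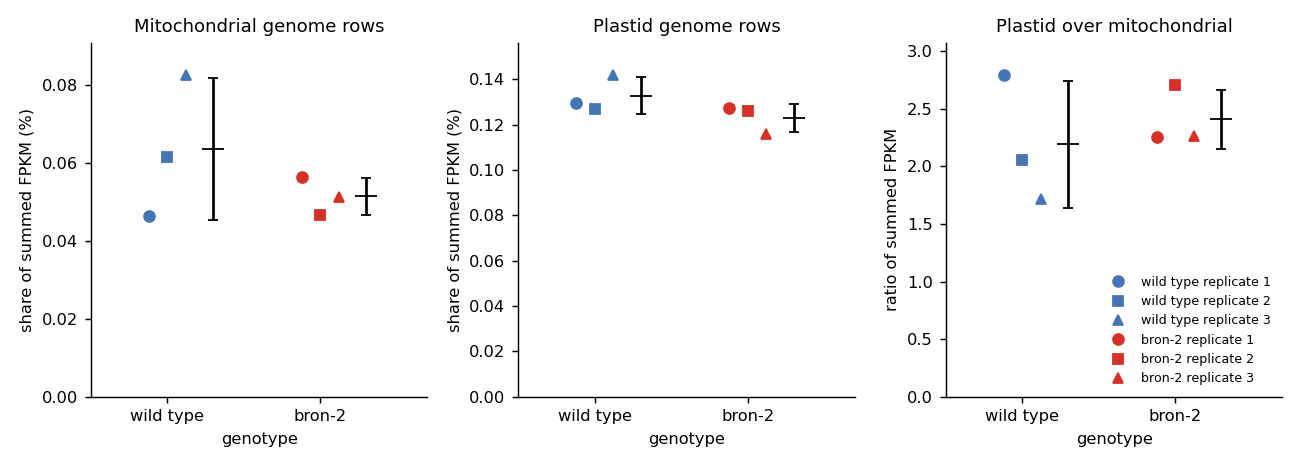
Share of summed FPKM of the mitochondrial (left) and plastid (middle) rows and the ratio of their sums (right) in each library, with the mean and SD of 3 libraries beside the points. The mitochondrial share spread from 0.0463% to 0.0825% in the wild type, around all 3 *bron-2* libraries.

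The mitochondrial signal came from very few rows. ATMG00020 and ATMG01390 held 79.9% to 86.6% of the mitochondrial sum in each library. The annotation used here gives neither row a name and does not mark ribosomal RNA rows. Whether the mitochondrial share is mostly ribosomal RNA was therefore not tested. ATMG00020 was at 190, 289 and 411 FPKM in wild type and 246, 231 and 230 FPKM in *bron-2*. The 3 *bron-2* libraries were close to each other, whereas the wild type ranged from below to above them. The log2 fold change was -0.26 (standard error, SE, 0.24, adjusted p = 0.758). It moved to 0.0057 without wild type replicate 3 and to -0.55 without wild type replicate 1, where it was called. ATMG01390 was at 106, 121 and 159 FPKM in wild type and 122, 95.0 and 102 FPKM in *bron-2*, with overlapping groups and a log2 fold change of -0.26 (SE 0.16, adjusted p = 0.636). Without wild type replicate 1 it was -0.39 and called.

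The ratio of ATMG00020 to ATMG01390 was 2.26 ± 0.415 in the wild type and 2.23 ± 0.206 in *bron-2* (SD, n = 3, exact permutation test, two-sided, p = 1). The wild type libraries that were high in ATMG00020 were also high in ATMG01390, with replicate 3 the highest and replicate 1 the lowest in both. With these rows left out, an alternative chosen after the data were seen, the mitochondrial share was 0.0104% ± 0.00163 in the wild type and 0.00879% ± 0.00222 in *bron-2* (SD, n = 3).

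The next rows were ATMG00030 and ATMG00660, with means of 24.7 and 14.5 FPKM. ATMG00030 was at 33.2, 8.29 and 27.6 FPKM in wild type and 25.1, 15.3 and 38.9 FPKM in *bron-2*. It had the highest log2 fold change of the tested mitochondrial rows, 0.30 (SE 0.51, adjusted p = 0.888), which is within its spread and was -0.28 without wild type replicate 2. ATMG00660 was at 14.7, 17.6 and 17.0 FPKM in wild type and 12.8, 11.3 and 13.4 FPKM in *bron-2*. It was the only tested mitochondrial row whose groups did not overlap (6.25%, against 15.7% of all tested genes). It fell by 0.37 on the log2 scale (SE 0.11, adjusted p = 0.340).

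The rest of the mitochondrial rows had means under 10 FPKM. Among the named ones, ATMG01000, ATMG01370, ATMG00080 and ATMG00090 had means between 2.68 and 5.17 FPKM and log2 fold changes between -0.19 and 0.27, all with overlapping groups. ATMG00080 was at 2.18, 1.75 and 4.31 FPKM in wild type and 3.94, 2.79 and 3.38 FPKM in *bron-2*, and its log2 fold change went from 0.27 to 0.55, a call, without wild type replicate 3. ATMG01380 was at 25.1 FPKM in wild type replicate 2 and at 0 in the other 5 libraries. A row that is at 0 in most libraries and at this level in another has no usable fold change, and its value of -1.57 (adjusted p = 0.698) rests on that library alone.

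The plastid signal was spread over more rows. A total of 14 rows averaged 10 FPKM or more and held 94.4% of the plastid sum. The median coefficient of variation among wild type libraries was 9.27% for these, compared with 29.2% for the 4 mitochondrial rows of that level. The highest was ATCG00790, at 201, 224 and 228 FPKM in wild type and 198, 179 and 233 FPKM in *bron-2*, which held 20.6% of the plastid sum. The wild type lay within the range of *bron-2*, and the log2 fold change was -0.10 (SE 0.11, adjusted p = 0.797). ATCG00470 was at 118, 138 and 141 FPKM in wild type and 124, 167 and 133 FPKM in *bron-2*, with a log2 fold change of 0.09 (adjusted p = 0.867).

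Several of the highest rows have neighbouring identifiers, ATCG00770 to ATCG00820. ATCG00780 was at 138, 108 and 133 FPKM in wild type and 120, 130 and 114 FPKM in *bron-2*, with overlapping groups. ATCG00820 was at 111, 108 and 100 FPKM in wild type and 106, 97.3 and 80.5 FPKM in *bron-2*. Its difference of -0.18 on the log2 scale (adjusted p = 0.641) became -0.26, a call, without *bron-2* replicate 1. ATCG00800 was at 64.1 to 75.9 FPKM in wild type and 62.4 to 66.2 FPKM in *bron-2*. In order of mean level, ATCG00790, ATCG00470, ATCG00780, ATCG00820 and ATCG00800 led the plastid list, and the library ranges of ATCG00470 and ATCG00780 overlapped, as did those of ATCG00780 and ATCG00820.

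ATCG00810 did not overlap between the genotypes. Its values were 42.3, 41.8 and 41.1 FPKM in wild type and 33.8, 36.5 and 32.9 FPKM in *bron-2*, so that every *bron-2* library was lower than every wild type library. It fell by 0.27 on the log2 scale (SE 0.08, adjusted p = 0.337). It was the only tested plastid row whose groups did not overlap (3.45%, against 15.7% of all tested genes). ATCG00770 was at 45.7, 41.9 and 49.9 FPKM in wild type and 42.9, 34.5 and 28.4 FPKM in *bron-2*. It fell by 0.38 (SE 0.15, adjusted p = 0.465) and was called, although *bron-2* replicate 1 was above wild type replicate 2. The call of ATCG00770 was lost without wild type replicate 1, wild type replicate 3, *bron-2* replicate 2 or *bron-2* replicate 3, with log2 fold changes of -0.38, -0.32, -0.38 and -0.24.

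The other rows over 40 FPKM showed no separation. ATCG01020 was at 68.8, 62.6 and 81.3 FPKM in wild type, against 86.8, 45.1 and 30.1 FPKM in *bron-2*, the widest spread of the 10 highest plastid rows in *bron-2*. The difference of -0.51 on the log2 scale (SE 0.33, adjusted p = 0.656) became -0.92, a call, without *bron-2* replicate 1. ATCG00480 was at 62.1, 59.6 and 65.1 FPKM in wild type and 61.0, 60.2 and 56.0 FPKM in *bron-2*. ATCG01120 was at 52.3, 34.1 and 51.1 FPKM in wild type and 33.2, 47.1 and 31.4 FPKM in *bron-2*. The log2 fold change of ATCG01120 was -0.29 (adjusted p = 0.686), and -0.48, a call, without wild type replicate 2.

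**Figure D4:**
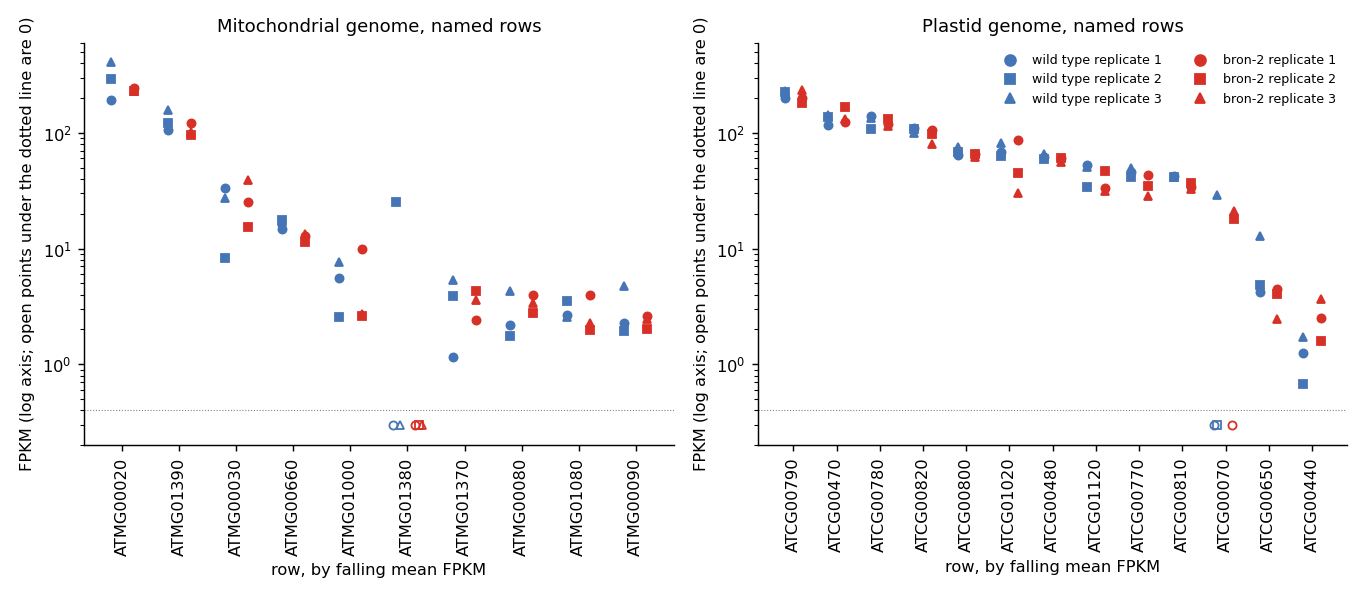
FPKM of the 10 mitochondrial (left) and 13 plastid (right) rows described in the text, in each library (log axis), with wild type in blue and *bron-2* in red, one symbol per replicate, and values of 0 as open symbols under the dotted line. Blue and red points intermix for most rows, and they separate for ATMG00660 and ATCG00810.

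Among the low plastid rows, ATCG00440 was the only called row that was higher in the mutant. Its values were 1.26, 0.681 and 1.72 FPKM in wild type and 2.52, 1.60 and 3.69 FPKM in *bron-2*, with *bron-2* replicate 2 below wild type replicate 3. The log2 fold change was 0.69 (SE 0.26, adjusted p = 0.452). The call was lost without wild type replicate 2, *bron-2* replicate 1 or *bron-2* replicate 3, with log2 fold changes of 0.50, 0.68 and 0.48. ATCG00650 had the lowest log2 fold change of the plastid rows, -0.71 (adjusted p = 0.568), with 4.25, 4.86 and 12.7 FPKM in wild type and 4.49, 4.04 and 2.46 FPKM in *bron-2*. Without wild type replicate 1 it was -0.97 and called.

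ATCG00070 had the highest log2 fold change of the plastid rows, 1.27 (adjusted p = 0.838). Its values were 0, 0 and 29.3 FPKM in wild type and 0, 18.2 and 21.3 FPKM in *bron-2*. Like ATMG01380, and like ATCG00300 (named after its values were seen) with 8.88 FPKM in wild type replicate 3, 16.3 FPKM in *bron-2* replicate 2 and 0 elsewhere, it was either at 0 or well above it. These 3 were the only organelle rows that reached 5 FPKM in at least 1 library while at 0 in another.

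Across the whole table, 1674 of the 17107 tested genes (9.79%) passed an unadjusted limma p of 0.05, the level of the study's own test, with 5.76% lower and 4.03% higher in *bron-2*. The groups did not overlap for 15.7%. The total was 1074 without wild type replicate 2 and 1053 without *bron-2* replicate 2. Of the 16 mitochondrial rows that could be tested, 1 was called, ATMG00660, and of the 29 plastid rows 3 were called, ATCG00810 and ATCG00770 lower and ATCG00440 higher. Together 4 of 45 tested organelle rows (8.89%) were called, near the share over all genes, and the groups did not overlap for 2 (4.44%). At an adjusted p under 0.05 there were 0 organelle rows, with a smallest adjusted p of 0.337, against 14 (0.0818%) of all genes.

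More tested rows were lower than higher in *bron-2* in both genomes. Of the mitochondrial rows tested, 12 were lower and 4 higher, with a median log2 fold change of -0.10. Of the plastid rows, 20 were lower and 9 higher, with a median of -0.07. Plastid rows of 10 FPKM or more gave 12 lower and 2 higher, and those of 1 to 10 FPKM 8 lower and 7 higher. Over all genes 50.3% were lower and the median was -0.001. Rows of the same genome share the libraries and their spread and are not independent of each other, so no test was made of these counts. Without wild type replicate 1 the called mitochondrial rows were ATMG00660, ATMG00020 and ATMG01390, without wild type replicate 3 they were ATMG00660 and ATMG00080, and without *bron-2* replicate 3 a single plastid row, ATCG00810, was called. When the rows were scaled to the sum of their own genome in each library and each genome was fitted alone, 0 rows of either genome were called. That fit took its variance trend from the few rows of the genome, so the effect of the scaling by itself was not tested.

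**Figure D5:**
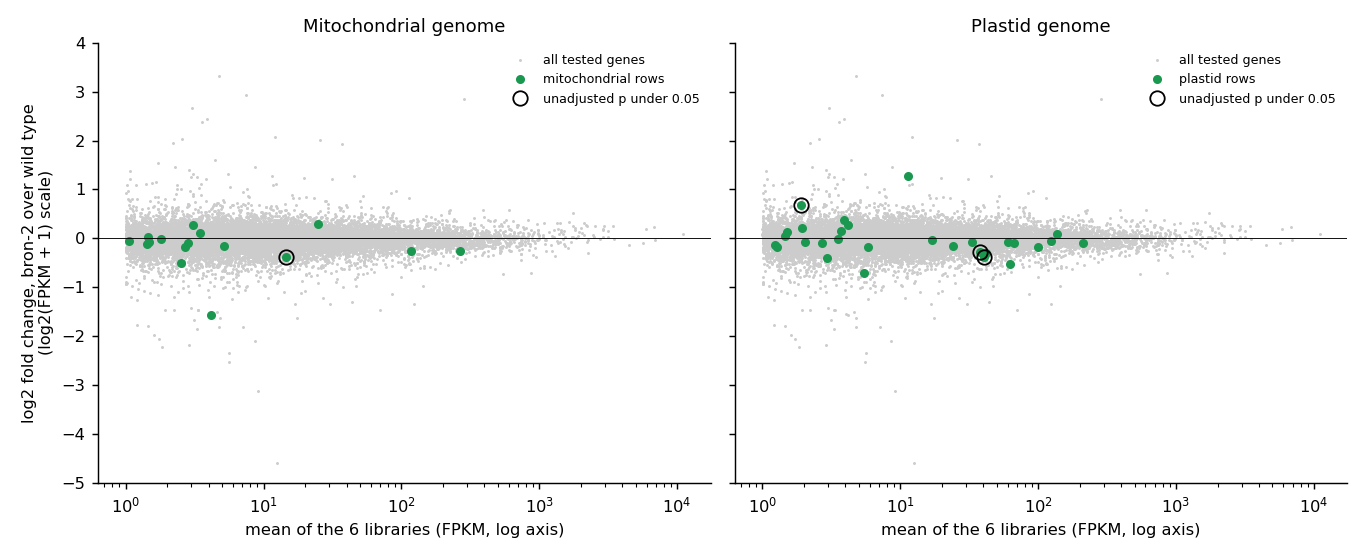
Log2 fold change of *bron-2* over wild type, on the log2(FPKM + 1) scale, against the mean level in FPKM (log axis) for all 17107 tested genes (grey) and for the 16 mitochondrial (left) and 29 plastid (right) rows (green), with rings around rows at an unadjusted limma p under 0.05. Most organelle rows lie within the cloud of all genes and slightly below 0, ATMG01380 (-1.57) and ATCG00070 (1.27) lie at its edge, and 4 rows carry a ring.

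The nuclear genes that transcribe and process organelle RNA were compared in the same fit. A list of 23 genes was used, with the phage-type RNA polymerases, the sigma factors, proteins associated with the plastid polymerase and polynucleotide phosphorylases, which are exoribonucleases that trim and degrade organelle RNA. Of the 22 that were tested, 15 were lower and 7 higher in *bron-2*, with a median log2 fold change of -0.08. A total of 2 were called (9.09%), against 9.79% of all genes, and the groups did not overlap for 7 (31.8%), against 15.7%. The 7 were MGP3, AT5G15700, SIGF, PTAC2 and AT5G14580, lower in *bron-2*, and SIGC and FSD2, higher. The gap was narrow for MGP3, at 3.731 FPKM in wild type replicate 3 and 3.730 FPKM in *bron-2* replicate 3. SIGC was also close, at 1.476 FPKM in wild type replicate 2 and 1.499 FPKM in *bron-2* replicate 2. Without wild type replicate 2 or *bron-2* replicate 3, 1 gene of the list was called.

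The phage-type polymerase genes were low in the root tip. MGP3 (AT1G68990), the polymerase of mitochondria, was at 4.31, 3.82 and 3.73 FPKM in wild type and 3.06, 3.18 and 3.73 FPKM in *bron-2*, with a log2 fold change of -0.20 (adjusted p = 0.630). AT5G15700, the polymerase found in both organelles, was at 1.64 to 1.97 FPKM in wild type and 1.12 to 1.59 FPKM in *bron-2*, and SCA3 (AT2G24120), that of plastids, had overlapping groups around a mean of 2.04 FPKM. Neither of the latter passed the test (adjusted p = 0.628 and 0.828). Among the sigma factors, which direct the plastid polymerase to its promoters, SIGE had the highest mean level (7.19 FPKM) and SIG4 did not exceed 0.0495 FPKM, and 0 of the 5 tested factors were called.

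The genes called in this list were a polynucleotide phosphorylase gene and an iron superoxide dismutase gene. AT5G14580, the phosphorylase of mitochondria, was at 6.05, 6.25 and 6.37 FPKM in wild type and 4.11, 3.84 and 4.73 FPKM in *bron-2*. All *bron-2* libraries were below the wild type, and it fell by 0.47 on the log2 scale (SE 0.11, adjusted p = 0.264). RIF10 (AT3G03710), the corresponding enzyme of plastids, was at 1.78 ± 0.0344 FPKM in wild type and 1.83 ± 0.199 FPKM in *bron-2* (SD, n = 3), with a log2 fold change of 0.02. FSD2 (AT5G51100), a superoxide dismutase of plastids, was at 1.89, 1.38 and 1.90 FPKM in wild type and 2.28, 2.71 and 3.21 FPKM in *bron-2*, higher in all mutant libraries (log2 fold change 0.45, SE 0.15, adjusted p = 0.404). Its relative FSD3 (AT5G23310), also associated with the plastid polymerase, had a log2 fold change of -0.34 (adjusted p = 0.552).

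Green tissue markers were followed because photosynthetic cells would bring in plastid RNA. PSBO1 (AT5G66570), of the oxygen-evolving complex, was lower in all *bron-2* libraries, at 23.3, 27.1 and 26.9 FPKM in wild type and 19.3, 22.7 and 21.3 FPKM in *bron-2* (log2 fold change -0.28, adjusted p = 0.441). RBCS1A (AT1G67090) was at 3.99 ± 1.41 FPKM in wild type and 2.15 ± 0.647 FPKM in *bron-2* (SD, n = 3, log2 fold change -0.64, adjusted p = 0.461), and both genes were called. These were 2 of the 6 markers that could be tested (33.3%, against 9.79% of all genes), of which 5 were lower and 1 higher in *bron-2*. The light-harvesting genes CAB3 (AT1G29910), LHCA1 (AT3G54890) and CAB1 (AT1G29930) had log2 fold changes of -0.43, -0.28 and -0.11, and the photosystem I gene PSAD-1 (AT4G02770) had 0.10. None of these 4 was called. Of the 11 markers 8 were above 0 in all libraries and 2 at 0 in all, and their part in the plastid values was not tested.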

How the data were processed

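The authors mapped single-end reads to TAIR10 using Cufflinks and deposited FPKM, with 1 column per library. The Cufflinks version, the annotation, the selection of mRNA and the treatment of reads with several matches are not given in the sources used here. FPKM do not hold read numbers, so no intervals from counting can be given. Columns were assigned by name, where the prefix N113 was taken as *bron-2*. Shares were compared by an exact permutation test in scipy 1.17.1, and genes by limma 3.58.1 (lmFit and eBayes with a trend, two-sided, Benjamini-Hochberg over 17107 genes) on log2(FPKM + 1). The authors called genes with PoissonSeq. The fit was tested on simulated data.

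Copies were found with blastn 2.17.0 (at least 1000 bases, 98% identity) in TAIR10.1 from RefSeq, the source of the sequences printed. Its annotation does not pair most organelle identifiers with names, so unnamed rows carry no role, and a planned grouping by function could not be made. Named rows are the 10 highest of each genome, those with an unadjusted p under 0.05 and the largest rise and fall, besides genes the annotation names, of which 1 is not reported here. Members and lists were chosen with earlier results of these data known. Alternatives covered pseudocount, filters, scalings, variance model, replicate block and left-out libraries.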

Additional observations from a re-analysis of the deposited data

How the results depend on the processing

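The differences in the shares of both genomes kept their sign under all alternatives run, and with each library left out they ranged from -0.0206 to -0.00255 percentage points for the mitochondrial share and from -0.0126 to -0.00500 for the plastid share. The difference in their ratio ranged from -0.0177 to 0.519 over the left-out libraries. Without a filter on low values the count of called rows went from 1 of 16 to 2 of 50 (4%) for the mitochondrial genome and from 3 of 29 to 8 of 59 (13.6%) for the plastid genome, against 1981 of 22770 genes (8.70%) in all. It went to 0 for both when rows were scaled to the sum of their genome and fitted apart from all other genes. The cause was not tested. Over the left-out libraries, 1 to 3 mitochondrial rows, 1 to 4 plastid rows, 1 to 3 genes of the nuclear list and 1053 to 2289 of all genes were called. With a mean of at least 5 FPKM, 1 gene of the nuclear list was called in place of 2. That filter itself removed FSD2, whose mean was 2.23 FPKM, along with most of the list.

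Scaled to the sum of the genome, the log2 fold changes reversed for ATMG01390 (0.0013), ATMG01000 (0.051), ATMG01080 (0.084), ATMG00090 (0.014), ATCG00780 (0.049), ATCG00800 (0.0083) and ATCG00480 (0.027), which follows from taking out the lower sum in *bron-2*. Leaving out a library also reversed ATMG00020 (range -0.55 to 0.0057), ATMG00030 (-0.28 to 0.66), ATMG01000 (-0.68 to 0.13), ATMG01370 (-0.35 to 0.43), ATMG01080 (-0.32 to 0.055), ATMG00090 (-0.38 to 0.12), ATCG00470 (-0.039 to 0.17) and ATCG00780 (-0.16 to 0.015), and ATMG01380 ranged from -2.35 to 0, the value without wild type replicate 2. The calls of ATMG00660 and ATCG00810 held with each library left out.

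Same-numbered libraries of the genotypes correlated in their deviations with r = 0.123, -0.0133 and 0.186, and differently numbered ones with r from -0.219 to 0.118. The labels do not state a pairing, and the numbers were not taken as pairs. Whether the libraries were paired was not tested. With the replicate block, 1 mitochondrial and 3 plastid rows and 2253 of all genes were called, against 1674 of all genes without it. In that fit 3 genes of the nuclear list were called, and the share differences had the same values. The planned analysis without ribosomal and transfer RNA rows was not run, since the annotation used does not mark those rows. With 3 libraries per genotype, p-values measure the spread between these libraries only. The depth in reads is unknown, which limits the rows under 10 FPKM most, where the median wild type coefficient of variation was 57.6% (mitochondrial) and 39.0% (plastid).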
